A study of Mus musculus with 4 samples.

Results

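The genes of 10 Toll-like receptors, Tlr1 to Tlr9 and Tlr13, were examined in chromatin accessibility profiles of mouse microglia, which are brain-resident macrophages. Accessible regions were assigned to them by position alone, as every deposited ATAC-seq peak that overlapped the body of a listed gene or the 10 kb on either side of it, in GRCm38 coordinates with GENCODE M21 gene models. The windows of Tlr1 and Tlr6, which are neighbours on chromosome 5, overlap, so the 10 genes gave 9 merged windows and each peak was counted once. After peaks of the 4 libraries with −log10 q of 2 or more, called strict here, were merged, the windows held 77 of the 155546 accessible regions on the autosomes and chromosome X. A further 24 regions in the windows held weaker peaks only, which made 101 regions of 388087 when every deposited peak was used.

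ATAC-seq records where the Tn5 transposase can cut chromatin, so a tall peak marks DNA that is accessible in the cells profiled. The libraries came from C57BL/6 mice aged 3 months. Microglia were taken from the brain without enzymes, sorted by flow cytometry and left untreated. The labels give 2 libraries as WT and 2 as IRF8KO, a knockout of the transcription factor IRF8, with replicates 1 and 2 in each, and the comparison asks which accessible DNA depends on genotype. They name neither the deleted part of Irf8 nor any Cre or other allele, and they do not say whether replicates came from separate animals, so p-values measure only the spread between these libraries.

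Toll-like receptors are innate immune sensors. Those at the cell surface, TLR1, TLR2, TLR4, TLR5 and TLR6, bind lipids and proteins of microbes, while TLR3, TLR7, TLR8, TLR9 and TLR13 sit in endosomes and bind nucleic acids. Through the adaptors MYD88 and TRIF they activate NF-kB, AP-1 and interferon regulatory factors, and microglia are brain cells well known to carry them. IRF8 binds DNA weakly alone and more tightly with the ETS factor PU.1, at composite elements that join an ETS site to an IRF site.

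WT libraries held 46948938 and 48896408 tags and IRF8KO libraries 78793572 and 66224648, so depth followed genotype, as did the tag length of 50 bp in WT and 49 bp in IRF8KO. Peak height was therefore taken as the pileup, the number of extended cut sites stacked at the summit, and given in PPM, pileup per 1000000 tags of the library. On this scale the median IRF8KO minus WT difference over the 58550 regions with a peak in all 4 libraries was -0.31 on the log2 scale, and IRF8KO replicate 1 was the lowest library with a median log2 pileup of -1.17 against -0.70 to -0.38 in the others. The promoter of Irf8 was open in every library, at 2.07 and 1.49 PPM in WT and 0.863 and 1.36 in IRF8KO, and since the deleted part is not given this does not check the labels. All 10 microglial marker promoters had a strict peak in each WT library and 9 in each IRF8KO library, where that of Sall1 was missing.

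The sequences that carry the differences described below are shown first, as the bases within 100 bp of the summit read from the RefSeq GRCm38 genome, 5′ to 3′. Bases in transcribed untranslated parts were left out, which shortens the first. Capitals mark matches to any of 7 motifs searched on both strands, namely the ETS-IRF composite GGAANNGAAA, the interferon response element GAAANNGAAA, PU.1 GAGGAAGT, AP-1 TGANTCA, CEBP TTGCNNAA, RUNX AACCACA and NF-kB GGGANNNTCC, where N is any base, and matches of the first pair can overlap. The first 4 sequences were from regions lower in IRF8KO, the next from a region with peaks in WT alone, the next 2 from regions higher in IRF8KO and the last 2 from regions with peaks in IRF8KO alone.
Tlr9 start, chr9:106222458-106222597, plus strand: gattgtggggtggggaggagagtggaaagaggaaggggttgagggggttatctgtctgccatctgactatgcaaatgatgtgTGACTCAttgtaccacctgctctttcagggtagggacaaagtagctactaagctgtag
Tlr9 0.64 kb downstream, chr9:106223135-106223335, plus strand: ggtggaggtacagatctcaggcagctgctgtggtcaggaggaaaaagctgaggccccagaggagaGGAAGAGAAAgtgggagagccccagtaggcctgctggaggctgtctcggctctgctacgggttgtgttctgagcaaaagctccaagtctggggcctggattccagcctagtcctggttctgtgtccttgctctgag
Tlr7 1.78 kb downstream, chrX:167328677-167328877, plus strand: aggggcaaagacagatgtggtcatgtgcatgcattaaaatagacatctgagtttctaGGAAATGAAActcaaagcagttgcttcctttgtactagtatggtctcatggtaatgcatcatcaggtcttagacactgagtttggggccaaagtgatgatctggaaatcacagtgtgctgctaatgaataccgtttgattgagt
Tlr4 15.9 kb downstream, chr4:66843354-66843554, plus strand: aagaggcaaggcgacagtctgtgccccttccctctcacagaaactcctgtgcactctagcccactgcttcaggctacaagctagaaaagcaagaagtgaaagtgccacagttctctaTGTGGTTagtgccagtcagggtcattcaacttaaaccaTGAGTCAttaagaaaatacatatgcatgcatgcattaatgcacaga
Tlr5 4.49 kb downstream, chr1:182959174-182959374, plus strand: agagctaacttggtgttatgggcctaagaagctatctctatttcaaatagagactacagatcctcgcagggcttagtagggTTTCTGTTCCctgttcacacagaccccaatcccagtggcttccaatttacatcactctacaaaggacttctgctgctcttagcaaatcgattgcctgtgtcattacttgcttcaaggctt
Tlr2 3.64 kb upstream, chr3:83845302-83845502, plus strand: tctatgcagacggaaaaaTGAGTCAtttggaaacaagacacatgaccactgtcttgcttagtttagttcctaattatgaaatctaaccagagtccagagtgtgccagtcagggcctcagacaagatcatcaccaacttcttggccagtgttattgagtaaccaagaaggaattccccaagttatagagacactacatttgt
Tlr13 8.20 kb upstream, chrX:106134903-106135103, plus strand: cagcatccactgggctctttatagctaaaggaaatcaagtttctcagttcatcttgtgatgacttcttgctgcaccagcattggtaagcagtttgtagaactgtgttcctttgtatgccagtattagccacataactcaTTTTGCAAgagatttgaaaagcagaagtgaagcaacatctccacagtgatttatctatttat
Tlr4 1.30 kb downstream, chr4:66828782-66828982, plus strand: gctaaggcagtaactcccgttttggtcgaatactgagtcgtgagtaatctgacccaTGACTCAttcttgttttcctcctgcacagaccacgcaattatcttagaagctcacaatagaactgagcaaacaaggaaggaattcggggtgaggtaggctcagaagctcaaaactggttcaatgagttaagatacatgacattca
Tlr8 1.71 kb downstream, chrX:167262523-167262723, plus strand: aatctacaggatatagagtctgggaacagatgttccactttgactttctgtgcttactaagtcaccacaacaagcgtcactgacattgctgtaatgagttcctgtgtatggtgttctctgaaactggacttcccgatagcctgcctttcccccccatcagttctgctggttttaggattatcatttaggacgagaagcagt

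ETS-IRF composites were written as GGAAGAGAAA at chr9:106223200-106223209 in Tlr9 and as GGAAATGAAA at chrX:167328734-167328743 in Tlr7, and the one in Tlr5 reads TTTCTGTTCC on the plus strand at chr1:182959255-182959264. AP-1 matches stood in the Tlr9 start, in both Tlr4 sequences and in Tlr2. The bases left out of the Tlr9 start held the 1 PU.1 match among the 4 lower regions. The Tlr13 sequence had a CEBP match, the Tlr4 sequence at 15.9 kb also had a RUNX match, and the Tlr8 sequence had none of the 7. Over the 77 member regions an ETS-IRF composite lay within 100 bp of the summit in 6 (7.79%), against 4.30% of all regions. AP-1 matched in 15 (19.5%) against 8.11%, CEBP in 9 (11.7%) against 9.54%, PU.1 in 7 (9.09%) against 7.73% and RUNX in 6 (7.79%) against 5.57%. Interferon response elements and NF-kB matched in 2 regions each (2.60%), against 3.13% and 2.70%. Of the 12 regions open in IRF8KO alone, 3 held AP-1, 3 held CEBP, 1 each held an interferon response element, PU.1 and NF-kB, and none held an ETS-IRF composite or RUNX. A match is a string of letters and was not tested for binding.

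Accessibility around the 10 genes differed between genotypes in both directions. Regions at the start of Tlr9 and in introns of Tlr9, Tlr7 and Tlr4 fell in IRF8KO, regions upstream of Tlr2 and Tlr13 rose, and Tlr8 had peaks over its start in IRF8KO alone. The windows held 49 and 48 strict peaks in WT and 49 and 65 in IRF8KO, means of 48.5 ± 0.707 and 57 ± 11.3 (SD, n = 2 each), and the difference of 8.5 did not exceed the spread (two-sided exact permutation p = 0.667, where 2 against 2 libraries cannot go below 0.333). Without IRF8KO replicate 2 the difference was 0.5 and without IRF8KO replicate 1 it was 16.5. Of the 77 regions, 12 (15.6%) had a strict peak in both IRF8KO libraries and no deposited peak in either WT library, against 3.86% of all regions. The converse held for 2 (2.60%), against 5.58%. A peak was present in all 4 libraries in 34, and the remaining 29 had some other pattern of presence.

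The 12 IRF8KO-only regions belonged to 5 genes, with 4 at Tlr4, 3 at Tlr8, 3 at Tlr13, 1 at Tlr1 and 1 at Tlr3. The 2 WT-only regions lay in Tlr4 and Tlr5. Tlr2, Tlr6, Tlr7 and Tlr9 had neither kind. Both counts change with the libraries used. With IRF8KO replicate 2 as the only knockout library, 20 of 76 member regions (26.3%) were IRF8KO-only against 15.0% of all regions, and with replicate 1 alone 15 of 68 (22.1%) against 14.4%. With peaks of −log10 q of 5 or more, 6 of 60 were IRF8KO-only against a background of 3.51%, and with every deposited peak 5 of 101 (4.95%) were WT-only against 3.70%.

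Absence from a list is not absence of signal. The pileup that a peak would have needed in a WT library was computed from the local background of that library's nearest peak. That peak could lie kilobases away, as at Tlr8. In 10 of the 12 IRF8KO-only regions both knockout values were above what either WT library needed, and the same was true, with genotypes exchanged, of both WT-only regions. The values of the 12 IRF8KO-only regions ran from 0.152 to 1.86 PPM.

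**Figure D1:**
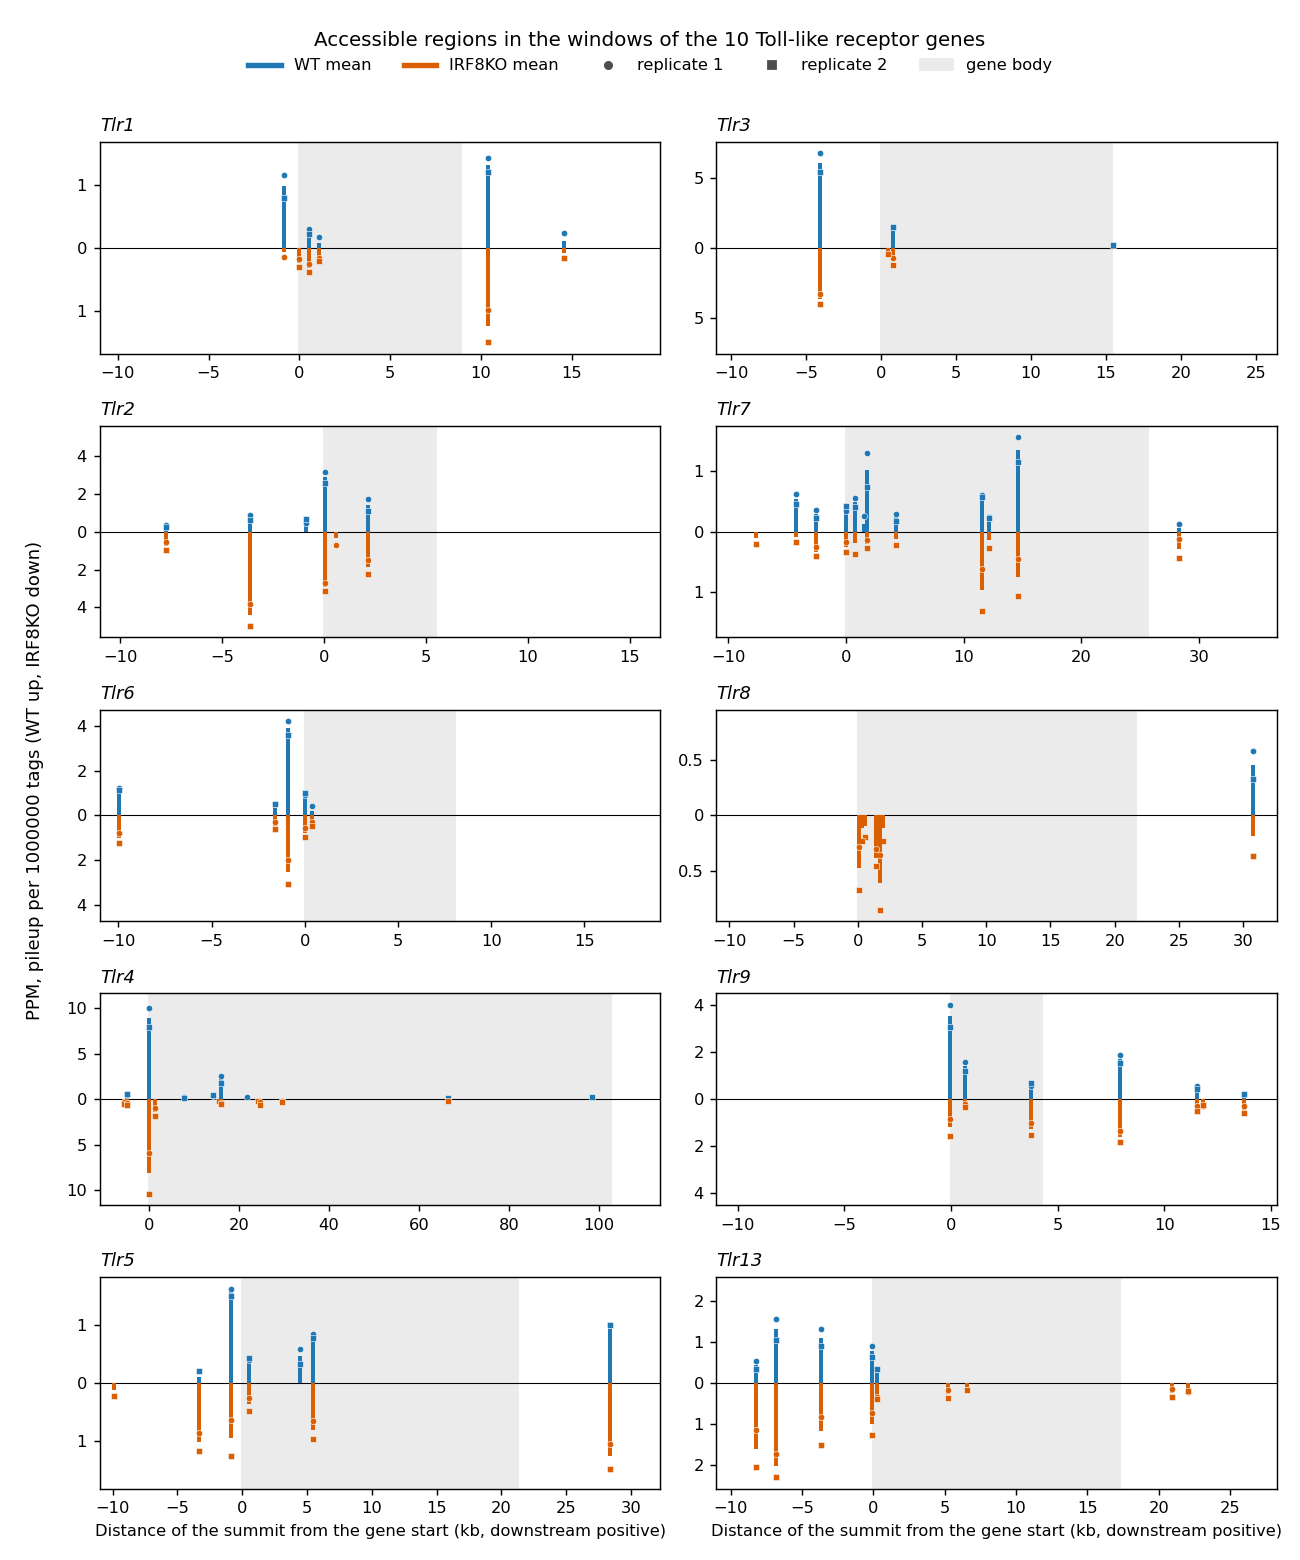
PPM of each accessible region against the distance of its summit from the gene start in kb, for the 10 genes. Bars pointing up are WT means and bars pointing down IRF8KO means with an absent peak counted as 0, points are single libraries and the gene body is shaded, and the Tlr8 panel shows a group of regions near the start that point down only.

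The 34 regions with a peak in all 4 libraries could be compared by height. Their median log2 difference was -0.11, above the -0.31 of all such regions, and 0.20 after the centring described next. It was 0.03 without WT replicate 1 and 0.19 without IRF8KO replicate 1. Testing with limma across all regions called 4 of the 34 (11.8%) lower in IRF8KO, against 6.83% of all regions, and 2 (5.88%) higher, against 2.81%. When each library was centred on its median over all regions, 6 members were lower against a background of 12.5% and 8 higher against 13.3%. Lower calls thus made up 66.7% of the members' calls on the PPM scale and 42.9% after centring, while for all regions the share went from 70.9% to 48.3%. Both IRF8KO libraries were below both WT libraries in 10 of the 34, against 37.1% of all regions, and above them in 7, against 11.9%.

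**Figure D2:**
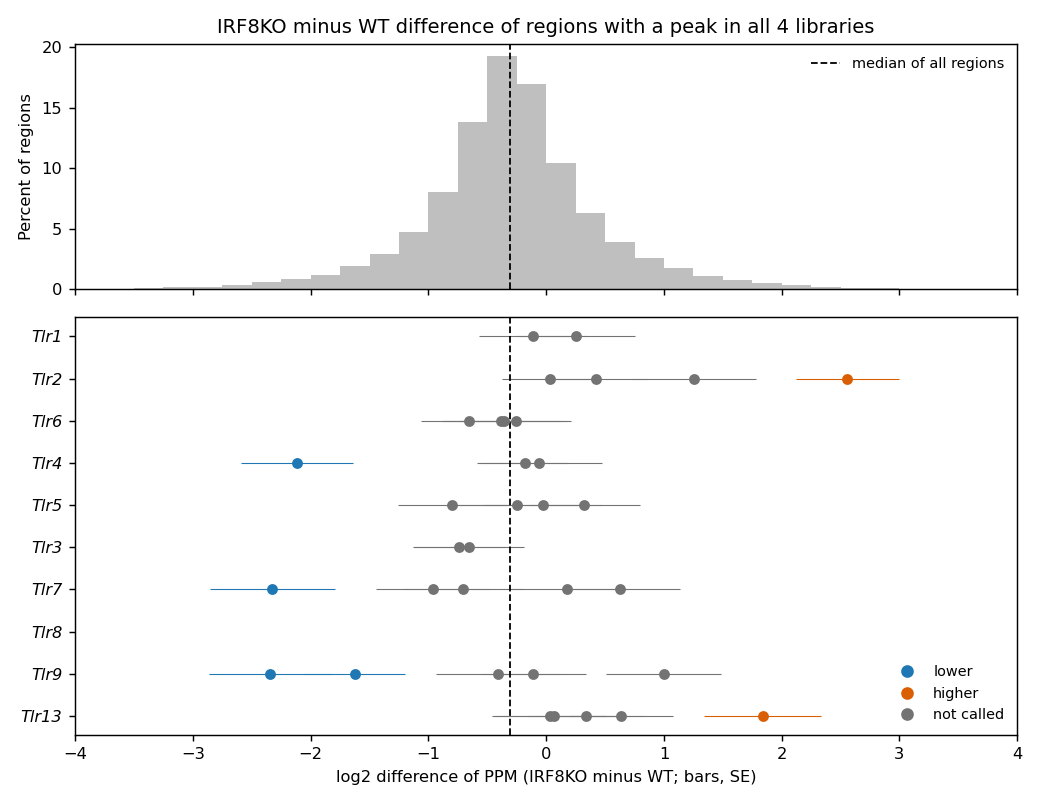
Top, the distribution of the IRF8KO minus WT log2 difference over 58550 regions in percent, with their median of -0.31 dashed. Bottom, the 34 member regions with a peak in all 4 libraries by gene, each with its SE and coloured by its limma call, where the calls at Tlr9, Tlr7 and Tlr4 lie between -2.34 and -1.63, those at Tlr2 and Tlr13 at 2.56 and 1.84, and Tlr8 has no such region.

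By the region at or nearest each gene start alone, the order of accessibility in WT was led by Tlr4 with a mean of 8.96 ± 1.48 PPM (SD, n = 2). Tlr9 at 3.56 ± 0.663 and Tlr2 at 2.86 ± 0.407 followed, and the libraries of these neighbours overlapped. Tlr6 at 0.959 ± 0.0905 overlapped Tlr13 at 0.775 ± 0.199, and Tlr5 at 0.417 ± 0.0175 overlapped Tlr7 at 0.385 ± 0.0627. The regions nearest the starts of Tlr1, Tlr3 and Tlr8 had no peak in WT, although other regions within 1 kb of the Tlr1 and Tlr3 starts did. Taller regions than those ranked also lay within 1 kb of the Tlr6 and Tlr5 starts. In WT they had 4.22 and 3.60 PPM at Tlr6 and 1.64 and 1.51 at Tlr5. In IRF8KO Tlr4 still led at 8.16 ± 3.17, then Tlr2 at 2.93 ± 0.3004, Tlr9 at 1.196 ± 0.507, Tlr13 at 1.003 ± 0.396 and Tlr6 at 0.762 ± 0.288. Below these came Tlr8 at 0.472 ± 0.272, Tlr3 at 0.455 ± 0.00275, Tlr5 at 0.369 ± 0.162, Tlr7 at 0.249 ± 0.118 and Tlr1 at 0.240 ± 0.0879. From Tlr9 downwards each gene in IRF8KO overlapped its neighbour in this order.

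**Figure D3:**
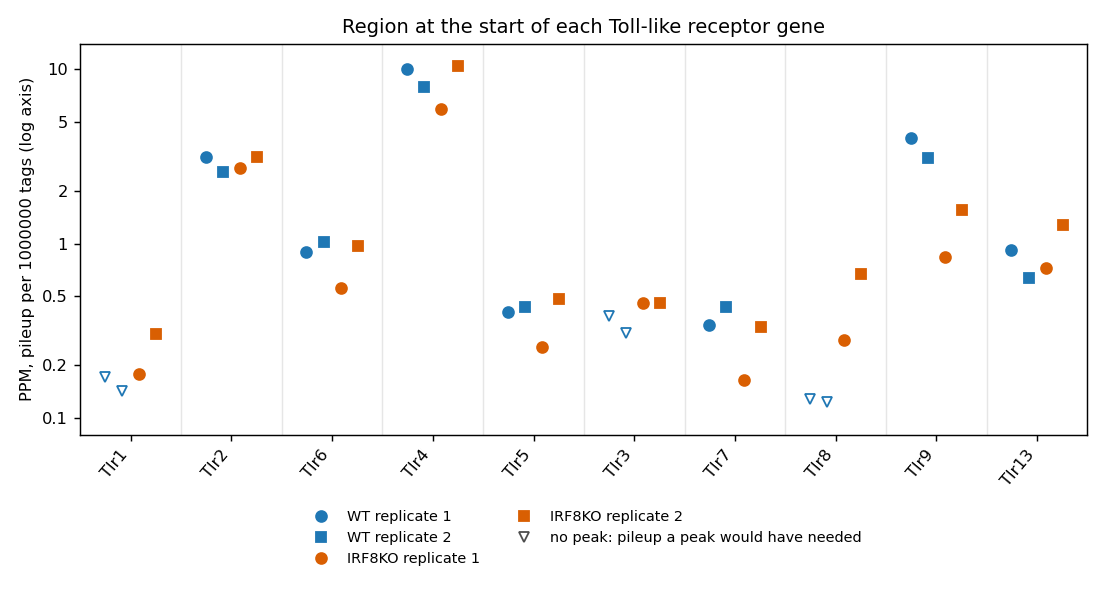
PPM, on a log axis, of the region at or nearest the start of each gene in the 4 libraries, with surface receptors on the left and endosomal ones on the right. Open triangles give the pileup a peak would have needed where none was deposited, and Tlr9 is the start whose IRF8KO values both lie clearly under the WT values while Tlr8 has peaks in IRF8KO alone.

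Among the surface receptors, Tlr2 (chr3:83836272-83841767, minus strand), which pairs with TLR1 or TLR6 to bind bacterial lipopeptides, held the region that rose most. It lay 3.64 kb upstream of the gene in intergenic DNA, at chr3:83844847-83845589. Its pileup was 0.895 and 0.614 PPM in the WT libraries, replicate 1 first here and throughout, against 3.81 and 4.98 in IRF8KO, so every knockout value was above every WT value. The mean was 5.83 times higher in IRF8KO and the log2 difference was 2.56 ± 0.44 (SE), with a limma adjusted p of 6.85e-07. It went from a minor peak of the window to its tallest. The call was lost only without WT replicate 2, where the adjusted p was 0.136. The start of Tlr2, by contrast, had 3.15 and 2.58 PPM in WT and 2.72 and 3.14 in IRF8KO. These values overlapped, and the log2 difference of 0.04 was not called by limma (adjusted p = 0.974).

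Another pair of Tlr2 regions was not called on the PPM scale, at adjusted p of 0.662 and 0.128, but was called higher after centring. The region in the intron 2.15 kb downstream had 1.704 and 1.104 in WT and 1.498 and 2.25 in IRF8KO, and the one 7.77 kb upstream had 0.341 and 0.266 against 0.533 and 0.966. The second was also called on the PPM scale without IRF8KO replicate 1 (adjusted p = 0.00631) and by limma without a trend (adjusted p = 0.0403), but with fold enrichment in place of pileup its log2 difference turned from 1.25 to -0.46 and was not called (adjusted p = 0.522). Among regions chosen after their values were seen, one 0.862 kb upstream of Tlr2 had listed peaks in WT and none in IRF8KO, at 0.469 and 0.654, but was not strict in both WT libraries. A knockout peak there would have needed 0.457 and 0.604, the latter above the value of WT replicate 1.

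Tlr1 and Tlr6 (chr5:64924679-64933563 and chr5:64952031-64960097, both on the minus strand) encode the partners of TLR2. At Tlr6 the tallest region lay 0.886 kb upstream of the gene and had 4.22 and 3.60 PPM in WT and 2.01 and 3.05 in IRF8KO. Both knockout values were lower, but the log2 difference of -0.66 was not called (adjusted p = 0.385). The Tlr6 start had 0.895 and 1.02 in WT and 0.558 and 0.966 in IRF8KO. No Tlr6 region was called on either scale.

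At Tlr1 a small region over the start was open in IRF8KO alone, at 0.178 and 0.302 PPM, where the WT libraries would have needed 0.1704 and 0.143. The value in IRF8KO replicate 1 was thus only 1.04 times the need of WT replicate 1. A region 0.543 kb downstream in a UTR exon had peaks in all 4 libraries, at 0.298 and 0.225 in WT and 0.254 and 0.378 in IRF8KO, values that overlapped. A region 0.822 kb upstream of Tlr1, chosen after its values were seen, had the converse pattern, with 1.15 and 0.798 in WT, 0.140 in IRF8KO replicate 1 and no peak in IRF8KO replicate 2. The tallest Tlr1 region, 10.4 kb from the start and past the gene's end, had overlapping values of 1.43 and 1.21 in WT and 0.990 and 1.49 in IRF8KO.

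Tlr4 (chr4:66827584-66930284, plus strand), the receptor of bacterial lipopolysaccharide, had the most regions, 14, and the most that were specific to a genotype. At 102701 bp Tlr4 is also the longest of the genes, so its window was the widest. Its start carried the tallest peak of all the windows, at 10.01 and 7.91 PPM in WT and 5.91 and 10.4 in IRF8KO. The genotypes overlapped there and the log2 difference of -0.18 was not called (adjusted p = 0.834). Within the gene the second tallest WT peak, at chr4:66843307-66843588 in an intron 15.9 kb downstream, fell. It had 2.51 and 1.84 PPM in WT and 0.432 and 0.574 in IRF8KO, 4.33 times lower on the means. Its log2 difference was -2.11 ± 0.48 (SE, adjusted p = 0.000366), and no knockout value reached a WT value.

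Close to the Tlr4 start stood a region with peaks in IRF8KO alone. It lay in the intron 1.30 kb downstream, at chr4:66828726-66828973, and had 0.990 and 1.86 PPM, the tallest of the IRF8KO-only regions. A WT peak there would have needed 0.511 and 0.409. Further IRF8KO-only regions in Tlr4 introns lay 24.7 kb downstream, at 0.317 and 0.664, and 29.6 kb downstream, at 0.178 and 0.317, both above the WT need. The one 5.64 kb upstream had 0.343 and 0.529 where WT replicate 1 would have needed 0.362, so the lower knockout value was not above that need. The WT-only region of Tlr4 lay in a UTR exon 14.2 kb downstream between the start and the region that fell, with 0.383 and 0.4499 in WT, and its summit window held an ETS-IRF composite.

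Tlr5 (chr1:182954788-182976044, plus strand), which binds flagellin, had a WT-only region in an intron 4.49 kb downstream, at chr1:182959161-182959428. It had 0.596 and 0.327 PPM in WT, and a knockout peak would have needed at most 0.136. This is the region whose printed sequence holds a composite element. The start region of Tlr5 had 0.405 and 0.429 in WT and 0.254 and 0.483 in IRF8KO, and the tallest in WT, 0.889 kb upstream, had 1.64 and 1.51 against 0.647 and 1.27. Neither was called, at adjusted p of 0.838 and 0.340. The tallest in both IRF8KO libraries lay 28.3 kb downstream, past the gene, with 1.001 and 1.002 in WT and 1.05 and 1.49 in IRF8KO. It was not called on the PPM scale (adjusted p = 0.760) but was called higher after centring (adjusted p = 0.0381). Upstream of the gene by 3.32 kb stood a region chosen after its values were seen, with 0.876 and 1.18 in IRF8KO, 0.205 in WT replicate 2 and no peak in WT replicate 1, where 0.1704 would have sufficed. It held an AP-1 match, as did the Tlr2 region that rose and 2 of the 4 member regions called lower.

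**Figure D4:**
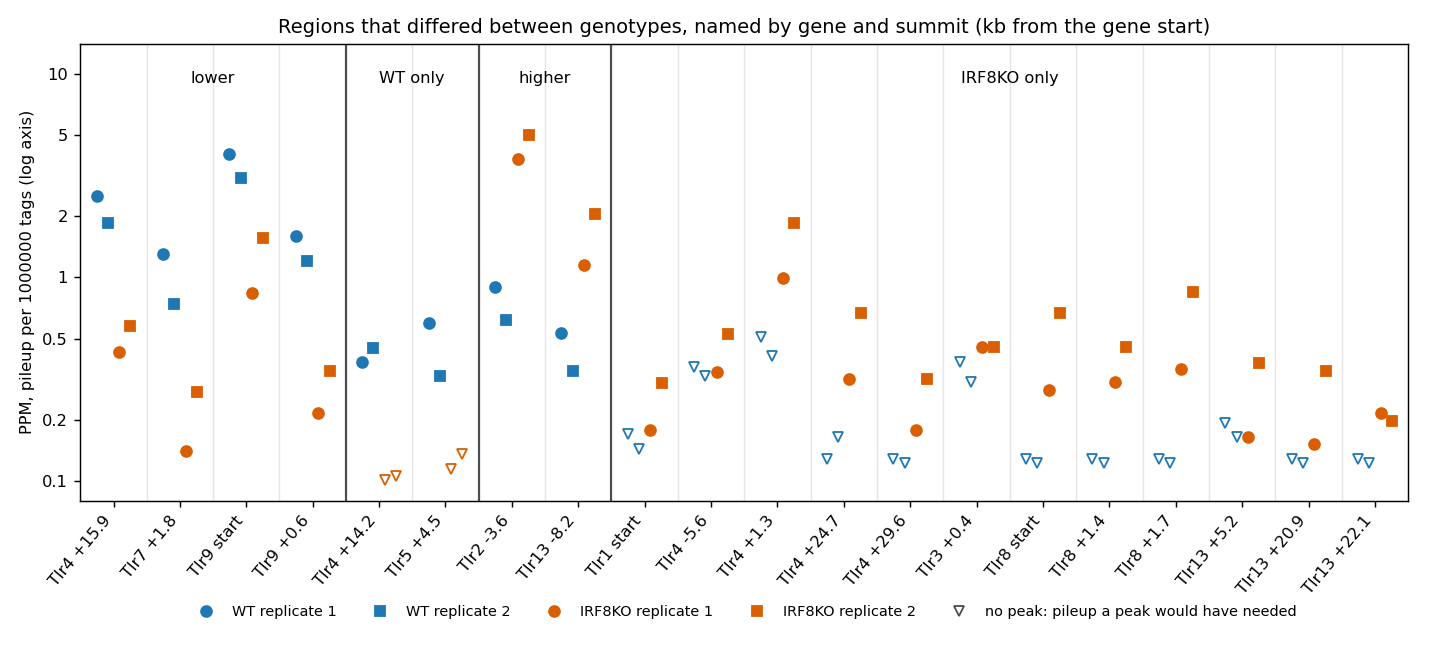
PPM, on a log axis, in the 4 libraries for the 4 member regions called lower in IRF8KO, the 2 with peaks in WT alone, the 2 called higher and the 12 with peaks in IRF8KO alone, each named by gene and summit position in kb from the gene start. Open triangles give the pileup a peak would have needed, and in most IRF8KO-only regions replicate 2 is the higher knockout library.

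Among the endosomal receptors, Tlr9 (chr9:106222598-106226883, plus strand), the sensor of unmethylated CpG DNA, was the gene whose start region fell. The region at chr9:106222104-106222746 spans the start and had 4.03 and 3.09 PPM in WT and 0.838 and 1.56 in IRF8KO. The genotypes did not overlap and the WT mean was 2.97 times the IRF8KO mean. The log2 difference was -1.63 ± 0.43 (SE, adjusted p = 0.00352). A second region, in the intron 0.637 kb downstream at chr9:106223091-106223331, fell further, from 1.60 and 1.21 to 0.216 and 0.347. Its log2 difference was -2.34 ± 0.52 (SE, adjusted p = 0.000273) and its summit lay 31 bp from the composite element shown above.

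The fall stayed within that end of the Tlr9 gene as far as calls go. In the coding exon 3.74 kb downstream the values were 0.575 and 0.675 in WT and 1.02 and 1.53 in IRF8KO, which did not overlap. The region was not called on the PPM scale (adjusted p = 0.219) but was called higher after centring, without IRF8KO replicate 1 (adjusted p = 0.0279) and with fold enrichment (adjusted p = 0.0287). The region 7.93 kb downstream, past the gene and nearest the start of Alas1, had overlapping values of 1.90 and 1.53 against 1.37 and 1.83.

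Tlr7 and Tlr8, both receptors of single-stranded RNA, are neighbours on chromosome X (chrX:167304929-167330558 and chrX:167242696-167264329, both on the minus strand). Over chromosome X as a whole the median log2 difference was -0.25 across 1288 regions, close to the -0.31 of the autosomes. Tlr7 lost height in the intron 1.78 kb downstream of its start, at chrX:167328421-167328894, which had 1.30 and 0.736 PPM in WT and 0.140 and 0.272 in IRF8KO. The WT mean was 4.95 times the IRF8KO mean, and the log2 difference was -2.33 ± 0.53 (SE, adjusted p = 0.000451). Here too the summit window held a composite element. So did those of the Tlr7 region 14.6 kb downstream, described below, and of a Tlr7 region neither called nor specific to a genotype. The start of Tlr7 was low throughout, at 0.341 and 0.429 in WT and 0.165 and 0.332 in IRF8KO, and was not called (adjusted p = 0.476). The tallest Tlr7 region in WT, 14.6 kb downstream, had 1.55 and 1.15 in WT and 0.444 and 1.06 in IRF8KO. It was not called on the PPM scale (adjusted p = 0.235) but was called lower without IRF8KO replicate 2 (adjusted p = 0.00173) and after centring, when the intronic region 11.6 kb downstream, the tallest in both IRF8KO libraries at 0.622 and 1.31, was called higher.

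Tlr8 had no region with a peak in all 4 libraries, and none of its WT peaks lay in the gene. Its single WT peak site in the window, 30.7 kb from the start and nearest the start of Tmsb4x, had 0.575 and 0.327 PPM in WT and 0.362 in IRF8KO replicate 2. At the start of the gene 3 regions had peaks in IRF8KO alone. The one over the start, at chrX:167264164-167264399, had 0.279 and 0.664 PPM. The intronic ones had 0.305 and 0.453 at 1.44 kb and 0.355 and 0.846 at 1.71 kb, the latter at chrX:167262457-167262705. A WT peak at any of these would have needed 0.128 and 0.123 by the background of the nearest WT peak. The lowest knockout value was 2.18, 2.38 and 2.78 times the higher need. That nearest peak lay outside the gene, so the WT background at these sites themselves was not measured. The need stands at a pileup of 6, the lowest of any WT peak. In each of the 3 regions IRF8KO replicate 2 was the higher library, and it alone had 3 further intronic peaks of 0.196 to 0.227 PPM, up to 1.97 kb from the start.

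Tlr3 (chr8:45395665-45411080, minus strand), the receptor of double-stranded RNA, was dominated by a region 4.10 kb upstream with 6.71 and 5.40 PPM in WT and 3.27 and 3.97 in IRF8KO. Both knockout values were lower, and the log2 difference of -0.74 was not called on the PPM scale (adjusted p = 0.272) but was after centring. The region nearest the Tlr3 start, 0.430 kb downstream in an exon that a non-coding transcript shares, was open in IRF8KO alone at 0.457 and 0.453, where WT would have needed 0.383 and 0.307. A larger region beside it, 0.789 kb downstream and over another annotated Tlr3 transcript start, had 1.47 and 1.45 in WT and 0.723 and 1.19 in IRF8KO.

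Tlr13 (chrX:106143204-106160493, plus strand), a mouse receptor of bacterial ribosomal RNA, held the other region that rose. It lay 8.20 kb upstream, at chrX:106134853-106135214, and had 0.532 and 0.348 PPM in WT and 1.15 and 2.05 in IRF8KO, a mean 3.65 times higher. The log2 difference was 1.84 ± 0.50 (SE, adjusted p = 0.00461). The tallest region, 6.81 kb upstream, had 1.55 and 1.06 in WT and 1.73 and 2.31 in IRF8KO. It was not called on the PPM scale (adjusted p = 0.460) but was called higher after centring. The start itself overlapped between genotypes, at 0.916 and 0.634 against 0.723 and 1.28 (adjusted p = 0.762). IRF8KO-only regions of Tlr13 were small, at 0.216 and 0.196 for the one 22.1 kb downstream, 0.152 and 0.347 at 20.9 kb, and 0.165 and 0.378 at 5.21 kb, where WT replicate 1 would have needed 0.192 in the last of these, so that IRF8KO replicate 2 was above that need and replicate 1 below it.

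The limma calls rest on 2 libraries a genotype. Without WT replicate 1, and likewise without WT replicate 2, no member was called lower and only the Tlr2 region was called higher in the first case and none in the second, though all 6 regions kept their direction. The adjusted p of the 5 calls other than Tlr2 then ran from 0.101 to 0.824. The call at the Tlr9 start was also lost when fold enrichment over local background replaced pileup, with a log2 difference of -0.90 in place of -1.63. The other called regions kept their calls there, all with smaller differences. Among them were Tlr2, at 1.58 in place of 2.56, and Tlr4, at -1.31 in place of -2.11.

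Promoters of other cell types were measured beside the regions that were higher or open in IRF8KO alone. Of 5 marker promoters of other brain macrophages, 2 had a strict peak in each WT library and 4 in each IRF8KO library. Their summed pileup was 0.916 and 0.614 PPM in WT and 2.94 and 4.82 in IRF8KO, with Cd163 at 0 in WT and Lyve1 at 0 in all libraries. The part of these cells in the results at Tlr2, Tlr4, Tlr8 and Tlr13 was not tested. Summed microglial promoters were lower in both IRF8KO libraries, at 27.3 and 19.6 in WT and 11.4 and 18.9 in IRF8KO. Monocyte promoters stayed between 0.128 and 0.307, with Ly6c2, Ccr2 and Plac8 at 0 in all libraries, and overlapped between genotypes. Other sums that were lower in both IRF8KO libraries were those of neutrophils, from 0.614 to 1.19 in WT and 0.178 to 0.453 in IRF8KO, endothelium, from 1.62 to 1.83 and 0.914 to 1.36, and oligodendrocytes, from 1.47 to 2.04 and 0.495 to 1.15. Neurons, from 1.02 to 1.10 and 0.589 to 0.596, and B or T cells, from 0.225 to 0.234 and 0 to 0.1396, were lower too. The astrocyte sum was higher in both, from 0.695 to 1.28 in WT and 1.32 to 2.17 in IRF8KO, with 2 of its 5 genes above WT in both and 1 below. Aldh1l1 had 0.405 and 0.205 in WT and 0.850 and 1.53 in IRF8KO, Gfap had 0.426 and 0.327 against 0.254 and 0.287, and Aqp4 was at 0 in all libraries. Gene by gene, both IRF8KO libraries lay below both WT libraries for 3 of 10 microglial promoters, 2 of 4 of endothelium and 2 of 4 of neurons. The same held for 1 of 4 of oligodendrocytes, 1 of 5 of neutrophils and 1 of 5 of B or T cells. They lay above both WT libraries for 1 of 10 microglial promoters and 4 of 5 of other brain macrophages. Of all regions with a peak in all 4 libraries, 37.1% lay below and 11.9% above, whereas absent marker peaks counted as 0 here. The part of these cells in the results was not tested either. In such bulk profiles fewer cells with an open region and less opening per cell cannot be told apart.

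Around the receptors, 41 other genes of the pathway had 435 regions, of which 29 (6.67%) were WT-only and 21 (4.83%) IRF8KO-only. Of 212 with a peak in all 4 libraries, 15 (7.08%) were lower and 3 (1.42%) higher, with a median log2 difference of -0.33. After centring, 30 (14.2%) were lower and 27 (12.7%) higher, against 12.5% and 13.3% of all regions. The WT-only, IRF8KO-only and lower shares lie near those of all regions given above, and the share called higher was smaller on the PPM scale. A strict promoter peak was found in all 4 libraries for 35 of the 41 genes.

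The other mouse receptors in the list, Tlr11 and Tlr12, which sense profilin of Toxoplasma, had 11 regions, of which 5 (45.5%) were WT-only, against 5.58% of all regions, and none IRF8KO-only, against 3.86%. Both promoters had strict peaks in each WT library but lacked them in IRF8KO. The Tlr12 start had 1.19 and 0.757 PPM in WT and no knockout peak, and the Tlr11 region 0.431 kb from the start had 0.256 and 0.409. A Tlr12 region 2.51 kb from the start was lower by limma, with 0.639 and 0.675 against 0.140 and 0.302 (log2 difference -1.68 ± 0.53, SE, adjusted p = 0.0199). The difference between these genes and the members was not tested.

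Among 103 regions of 10 accessory and trafficking genes, 9 (8.74%) were WT-only, against 5.58% of all regions, and 4 (3.88%) IRF8KO-only, against 3.86%. Of the 46 with a peak in all 4 libraries, 3 (6.52%) were lower and 2 (4.35%) higher, against 6.83% and 2.81%, and after centring 5 (10.9%) were lower and 8 (17.4%) higher, against 12.5% and 13.3%. Ly86, which encodes MD-1, the partner of the receptor homologue CD180, had 6 of the WT-only regions, and its start had 1.66 and 1.64 PPM in WT and no peak in IRF8KO. Cd180 itself had one strong WT-only region, at 2.19 and 1.90, beside one IRF8KO-only region, at 0.432 and 0.634. Cd36, a scavenger receptor that acts with TLR2 and TLR6, had regions called in both directions, among them one 8.66 kb from the start at 0.277 and 0.245 in WT and 3.43 and 5.35 in IRF8KO (log2 difference 4.04 ± 0.47, SE). Unc93b1, which carries the endosomal receptors out of the endoplasmic reticulum, had 1 WT-only and 1 IRF8KO-only region and 1 that was lower, at 3.37 and 2.33 against 1.04 and 1.28.

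The 6 adaptor genes had 67 regions, and of the 37 with a peak in all 4 libraries 1 was lower and 1 higher (2.70% each, against 6.83% and 2.81% of all regions), both described here after their values were seen. After centring 2 were lower and 2 higher (5.41% each, against 12.5% and 13.3%). The lower one lay 10.3 kb from the start of Ticam1, which encodes TRIF, the adaptor of TLR3 and TLR4. It had 3.58 and 2.72 PPM in WT and 0.343 and 0.498 in IRF8KO, which did not overlap (log2 difference -2.92 ± 0.47, SE, adjusted p = 9.51e-08). The higher one, 20.9 kb from the start of Scimp, which encodes a transmembrane adaptor, had 0.362 and 0.266 against 1.09 and 0.921 (log2 difference 1.69 ± 0.52, SE, adjusted p = 0.0183). Of the 67 regions 2 were WT-only and 2 IRF8KO-only (2.99% each, against 5.58% and 3.86% of all regions). Scimp and Pik3ap1 each had 1 WT-only and 1 IRF8KO-only region, and the IRF8KO-only one of Scimp lay within 1 kb of a start. The 15 genes of kinases and ubiquitin ligases had 153 regions, of which 12 (7.84%) were WT-only, against 5.58% of all regions, and 8 (5.23%) IRF8KO-only, against 3.86%. Of the 74 with a peak in all 4 libraries, limma called 9 (12.2%) lower, against 6.83%, and none higher, against 2.81%. After centring it called 13 (17.6%) lower and 10 (13.5%) higher, against 12.5% and 13.3%. The genotype-specific regions were spread over Irak2, Irak4, Traf3, Traf6, Tab1, Tab2, Map3k7, Chuk, Ikbkb, Tbk1, Ikbke and Peli1. Map3k7, which encodes the kinase TAK1, had a WT-only region of 1.98 and 1.19 PPM. Irak2, a kinase recruited through MYD88, had 3 WT-only and 2 IRF8KO-only regions. A region within 1 kb of an annotated start of Irak2, 31.2 kb from the gene's own, was open in WT alone (0.405 and 0.429). Promoter regions open in IRF8KO alone occurred at Tbk1 (0.279 and 0.468) and Ikbke (0.939 and 0.846), whose kinases phosphorylate IRF3.

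Of 101 regions of the 8 negative regulators, 7 (6.93%) were IRF8KO-only, against 3.86% of all regions, and 1 (0.990%) WT-only, against 5.58%. Irak3, which encodes an inhibitory member of the IRAK family, had 3 of the IRF8KO-only regions, at 0.152 to 0.453 PPM. Dusp1, a phosphatase of MAP kinases, had 3 IRF8KO-only regions, the tallest at 0.977 and 0.906, and the one WT-only region. Tnfaip3, which encodes the ubiquitin-editing enzyme A20, had an IRF8KO-only region 0.761 kb from its start at 0.355 and 0.393. By limma 1 of 53 regions of these genes (1.89%) was lower, against 6.83%, and none higher, against 2.81%. After centring 8 (15.1%) were lower and 7 (13.2%) higher, against 12.5% and 13.3%.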

How the data were processed

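The members, the pathway and marker lists and the tests were chosen with earlier results of these data known. Genome build mm10 and the tools Bowtie2 and MACS2 2.1.1.20160309 are named in the submitters' processing notes. Each library had its own peak calling run, with no control and a p cutoff of 0.01, per the file headers. The authors had cut sites shifted by -37 bp and extended to 73 bp, per the same headers, which suits Tn5 cut sites. The deposited pileup is a whole-number signal at the summit, unscaled for depth. Fold enrichment, as deposited, gives the ratio to local background within a library. The deposited p and q are −log10 values, and the q column held values although the headers say that q was not calculated. Counts of reads were not used here.

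Intervals listed more than once were reduced to distinct peaks with their best summit. Pileup was scaled to 1000000 header tags (PPM), and for each region the tallest overlapping peak of a library was taken. Regions with a peak in all 4 libraries were tested on log2 values without a pseudocount, with limma 3.58.1 in R 4.3.3 and a trended prior variance, adjusted by Benjamini-Hochberg over all 58550 and called at an adjusted p under 0.05. The test was run on simulated data with known changes. The needed pileup solves the Poisson p of 0.01 at the background recovered from the nearest peak, a formula that gave the deposited p within 2% for 99.999% of 671579 peaks. No peak ended past a GRCm38 chromosome, and the libraries shared no more than 33 identical peaks. Named were each gene's start region within 1 kb, its tallest region, every genotype-specific or called region, and pathway genes with any genotype-specific region in their window or a called region at the start. Some regions named outside this rule are marked as chosen after their values were seen. Others, such as further regions near the Tlr1, Tlr3 and Tlr8 starts, stand outside it unmarked. Motif counts cover 100 bp on each side of the summit.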

Additional observations from a re-analysis of the deposited data

How the results depend on the processing

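Centring on the median of all regions gave 6 lower and 8 higher of the 34 members, against 12.5% and 13.3% of all regions. Quantile normalization gave 6 and 7. Fold enrichment gave 3 and 3, and limma without a trend 4 and 3. Gene bodies alone gave 4 lower and 0 higher of 18 regions by limma, with 0 higher because both higher regions lie outside the bodies. Windows of 50 kb gave 8 and 5 of 82, against 6.83% and 2.81% of all regions. WT-only regions numbered 5 with all deposited peaks and 4 with 50 kb windows, and IRF8KO-only regions numbered 6 at −log10 q of 5 or more. Leaving out 1 library at a time gave 0 to 8 lower and 0 to 4 higher calls, 3 to 6 WT-only and 14 to 20 IRF8KO-only regions, a difference of 0.5 to 16.5 strict peaks and a median of -0.50 to 0.19. Where a genotype was left with 1 library, it was assumed to vary like the other. Every alternative fit kept the sign of the 6 called regions. The median, -0.11, turned positive after centring, with or without the replicate block (0.20), with quantile normalization (0.19), without WT replicate 1 (0.03) and without IRF8KO replicate 1 (0.19).

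The replicate numbers were not a pairing given by the design, and the deviations of same-numbered libraries correlated at 0.0044. With the replicate block there were 0 lower and 1 higher calls, the Tlr2 region (adjusted p = 0.0264). With the block and centring together, an alternative chosen after seeing the data, there were 6 lower and 8 higher. Depth, tag length and genotype cannot be told apart. Peak lists hold no signal below their thresholds, which lay at a pileup of 6 to 8.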
